A study of Mus musculus with 4 samples.

Results

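Irf8, Irf4, Batf3, Zeb2, Nfil3, Bcl11a and Zbtb46 are 7 transcription factor genes that act in dendritic cell fate. They were taken by symbol from the 32272 gene rows of a mouse bone marrow single-nucleus multiome matrix, and all 7 were found and had UMIs in both libraries. Chromatin was followed in the 163 of 174339 ATAC peaks that lay within 50 kb of the annotated start interval of a member. Both readouts were summed per cell class and library over the nuclei kept, those in which 200 or more genes were detected and whose ATAC counts in peaks lay between 1000 and 50000.

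The nuclei came from HSPCs, the hematopoietic stem and progenitor cells of bone marrow, sorted as lineage-negative and cKit-positive. Mice were C57BL/6 wild-type males of 8 weeks, and they either carried silk ligatures around molar teeth for 14 days (Lig) or stayed without ligature (Ctrl). The labels describe 4 samples in 4 groups, an RNA and an ATAC library of each condition, so each group held 1 sample. Nuclei of both conditions stand in 1 matrix under barcode suffix 1 or 2, no label ties a suffix to a condition, and the suffixes are called library 1 and library 2 here, in no group. No comparison of Lig with Ctrl was made, and no p-value is given. The marrow of 5 mice was combined before the sort in each condition, so a library averages over animals and shows no spread between them. Antibodies to CD11b and B220, surface proteins that many mature dendritic cells carry, were part of the lineage mix of the study. A B-like cluster led by immunoglobulin genes still held 191 and 81 of the nuclei, and whether mature dendritic cells passed the sort was not tested.

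Dendritic cells take up antigen and present it to T cells, and they arise in bone marrow from progenitors shared with monocytes and lymphocytes. Conventional dendritic cells depend on IRF8 and BATF3 or on IRF4 and NOTCH2, depending on the subset, and they carry ZBTB46. Plasmacytoid dendritic cells, the main producers of type I interferon, depend on TCF4, with BCL11A and ZEB2 acting on the same side, whereas ID2 and NFIL3 act on the conventional side. IRF8 binds DNA mostly with partners, with PU.1 at ETS-IRF elements and with BATF3 at AP-1-IRF elements.

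Library 1 held 5905 nuclei with 10294527 UMIs and 118239764 ATAC counts, and library 2 held 7714 nuclei with 12537328 UMIs and 128699726 ATAC counts. The median nucleus had 1641 UMIs in library 1 and 1516.5 in library 2. Levels of RNA are UMIs per 1000000 UMIs of all genes in a class (CPM), and accessibility is ATAC counts per 1000000 peak counts of a class. Intervals are 95% and cover counting error only, since a class in a library is 1 sum and nuclei are not replicates. For a level of 0 the limit given is that of 3 counts, a bound on 1 side that lies below the upper end of the interval on both sides drawn in the plot of RNA levels. UMIs of genes at the ribosomal RNA locus made up 43.0% of library 1 and 53.2% of library 2, with a range over classes of 38.2% to 53.6% and of 50% to 60.8%, and their part in the level differences between libraries was not tested. Of the kept nuclei, 144 had a barcode sequence that occurs under both suffixes. Irf8 ratios with and without these nuclei stand beside the result below.

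The dendritic classes were named from marker genes, with the 7 members and their 163 peaks left out of the clustering. The class called cDCP-like, for progenitors of conventional dendritic cells, held 66 nuclei in library 1 and 96 in library 2, and its leading genes were Cd74, Grasp, Plbd1 and Pid1. The class called pDCP-like, for the plasmacytoid counterpart, held 63 and 30 nuclei and was led by Siglech, Mctp2, Tcf4 and Prkca. The summed level of the 11 conventional markers was 1772 and 1252 CPM in cDCP-like nuclei of libraries 1 and 2, and outside the dendritic classes it ranged from 95.9 to 1182 CPM and from 53.3 to 555 CPM, with B-like nuclei, which share MHC class II genes, at the top. The 11 plasmacytoid markers summed to 1825 and 965 CPM in pDCP-like nuclei and to at most 320 and 234 CPM outside the dendritic classes. Of the markers of mature conventional subsets, Clec9a had 4 and 1 UMIs in cDCP-like nuclei of the libraries, Cd209a 1 and 0, and Xcr1 and Mgl2 0 in both, where 3 counts come to 25.8 and 23.8 CPM and Xcr1 had 6 UMIs in all nuclei together. Itgax had 3 and 1 UMIs in cDCP-like and also in pDCP-like nuclei. Siglech had 40 and 15 UMIs in pDCP-like nuclei, Ptprs 28 and 5, Bst2 20 and 5, Cyb561a3 20 and 2, Ccr9 12 and 3, Pacsin1 8 and 4 and Lag3 6 and 1. Atp1b1 had 15 and 0 there, Cox6a2 9 and 0, Upb1 3 and 0 and Klk1 1 and 0. In all, 13 classes were named, and 6 further clusters (0, 1, 4, 5, 8 and 18) stayed unnamed. Unnamed clusters took in a large share of what was kept, 43.6% (library 1) and 55.5% (library 2). They are counted among the other nuclei in the ratios of a dendritic class to all other nuclei.

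Irf8 had the highest RNA level in the dendritic classes of both libraries. In pDCP-like nuclei it stood at 1104 CPM in library 1 (interval 896 to 1345, 98 UMIs) and at 469 CPM in library 2 (273 to 750, 17 UMIs). In cDCP-like nuclei it stood at 628 CPM (492 to 789, 73 UMIs) and 380 CPM (281 to 504, 48 UMIs). Against all other nuclei of the same library, the pDCP-like level was 8.43-fold higher (6.79 to 10.4) and 6.06-fold higher (3.51 to 9.75). For cDCP-like nuclei the ratio was 4.69 (3.66 to 5.94) and 5.04 (3.69 to 6.74). Without the barcode sequences that both suffixes share, the pDCP-like ratios were 8.51 and 6.04. Between the dendritic classes, pDCP-like exceeded cDCP-like 1.76-fold (1.29 to 2.41) in library 1, while in library 2 the ratio of 1.23 had an interval of 0.664 to 2.18 and the classes could not be told apart.

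Below the dendritic classes, the order of the other classes in Irf8 RNA was shared by the libraries only in part. B-like nuclei stood at rank 7 and 4 of the libraries, and cMoP-like nuclei at rank 9 and 13. Most ratios between neighbours in the order had intervals that held 1. Cluster 5, an unnamed cluster led by Ephb2, Col19a1 and Ccnd1, followed the dendritic classes in both libraries. It had 315 CPM in library 1 and 181 CPM in library 2, and cDCP-like nuclei exceeded it 1.99-fold (1.52 to 2.58) and 2.10-fold (1.49 to 2.92). Clusters 0 and 1, led by Tnf, Nrg1 and Gpr141, stood at 164 and 177 CPM in library 1 and at 85.3 and 103 CPM in library 2. Cluster 8 stood at 164 and 78.9 CPM, B-like nuclei at 142 and 116 CPM, pro-NK/T-like nuclei at 111 and 103 CPM, and pro-B-like nuclei at 81.6 and 76.0 CPM. Multipotent progenitor-like (MPP-like) nuclei, led by Flt3 and Dntt among others, had 93.3 and 56.0 CPM, which was 3.10-fold (1.71 to 6.11) and 2.22-fold (1.18 to 4.50) the level of stem cell-like (HSC-like) nuclei. Common monocyte progenitor-like (cMoP-like) nuclei had 122 CPM from 12 UMIs and 40.9 CPM from 5 UMIs.

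Granulocyte-monocyte progenitor-like (GMP-like) nuclei, at 42.3 and 29.0 CPM, did not differ in Irf8 RNA beyond counting error from erythroid progenitor-like (EryP-like) nuclei at 34.7 and 26.7 CPM. The ratio of GMP-like to EryP-like was 1.22 (0.655 to 2.29) and 1.09 (0.559 to 2.24). Neutrophil precursor-like (NeuP-like) nuclei stood at 38.4 and 32.3 CPM, with intervals of the ratio to EryP-like that also held 1. Levels of HSC-like, basophil progenitor-like (BaP-like) and megakaryocyte progenitor-like (MkP-like) nuclei lay between 22.1 and 35.5 CPM. Erythroid cells are not known for Irf8, and their level is used here as a low reference. Free RNA in droplets was not measured. In pro-B-like nuclei the level was 2.35-fold (1.48 to 3.92) and 2.85-fold (1.54 to 5.69) that of EryP-like nuclei. The GMP-like class was 1 cluster, named from Elane, Mpo, Prtn3, Ctsg, Ms4a3, Prss57 and Calr, and may not cover all granulocyte-monocyte progenitors. The unnamed cluster 0 had 3.88-fold (2.57 to 6.09) and 2.94-fold (2.04 to 4.37) the GMP-like level. For the unnamed cluster 1 this was 4.18-fold (2.74 to 6.62) and 3.55-fold (2.47 to 5.24).

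The share of nuclei with an Irf8 UMI was also higher in both dendritic classes than in EryP-like nuclei. It was 74.6% (62.1% to 84.7%) of pDCP-like nuclei in library 1 and 43.3% (25.5% to 62.6%) in library 2, 51.5% and 42.7% of cDCP-like nuclei, and 5.11% and 3.75% of EryP-like nuclei. Median depth was 1200 and 1091.5 UMIs in pDCP-like, 1632.5 and 1224 in cDCP-like and 1580 and 1315.5 in EryP-like nuclei. With each nucleus thinned to 1000 UMIs, the shares were 64.4% and 47.1% of pDCP-like, 48.3% and 40.6% of cDCP-like and 1.99% and 2.48% of EryP-like nuclei. Thinning left out 18 and 13 pDCP-like, 6 and 27 cDCP-like, and 32 and 78 EryP-like nuclei with fewer UMIs.

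**Figure D1:**
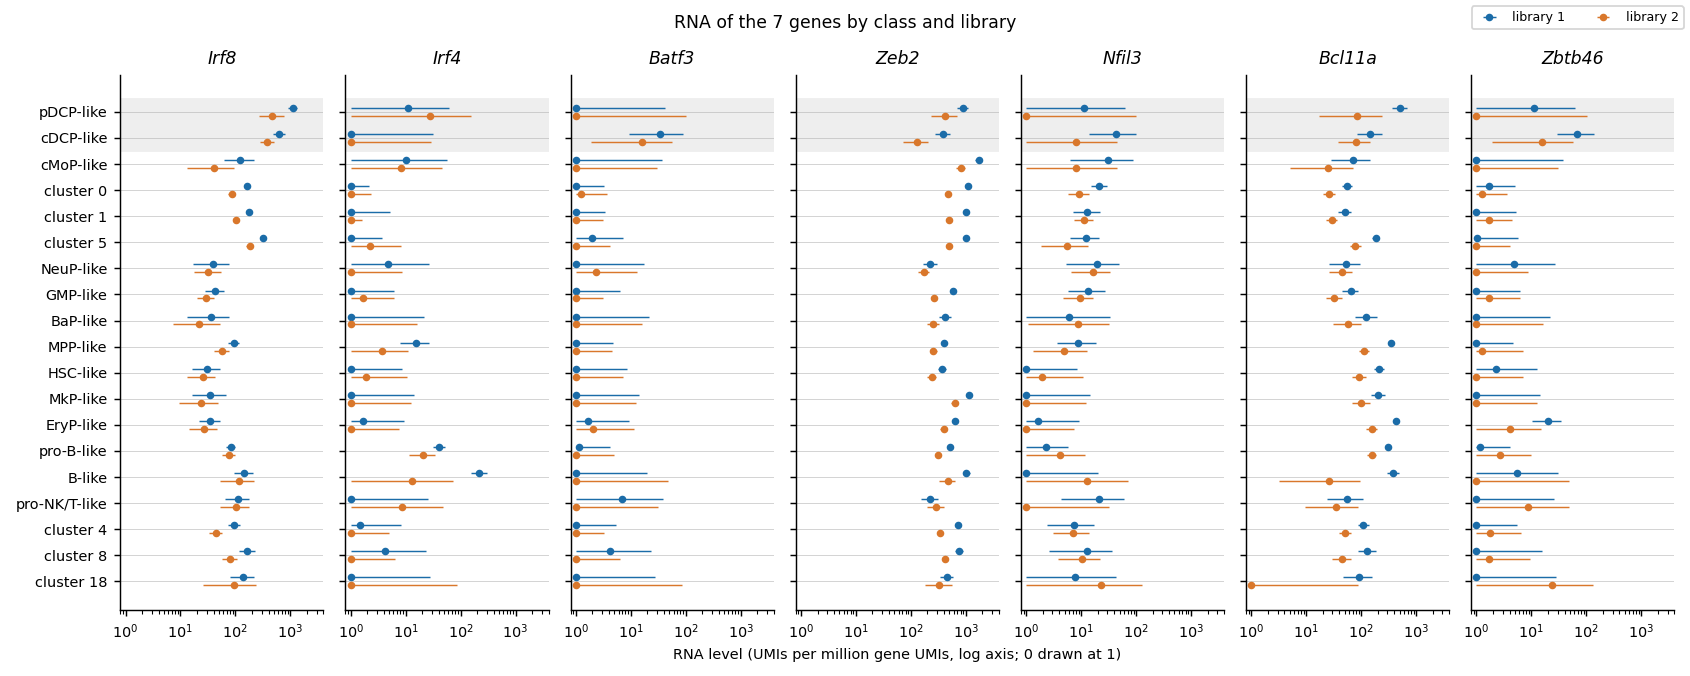
RNA level of the 7 genes in 19 classes (rows) and both libraries (colours), in UMIs per 1000000 gene UMIs on a log axis, with exact Poisson intervals and levels of 0 drawn at 1. Irf8 reaches 1104 and 469 CPM in the shaded pDCP-like row, while the Batf3, Nfil3 and Zbtb46 intervals of most classes reach down to 0 or near it.

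Chromatin around Irf8 was less uneven than its RNA. Irf8 lies on the plus strand at chr8:120736358-120756694 of GRCm38, and the 34 peaks of its window summed to 323 CPM (278 to 374) in pDCP-like nuclei of library 1 and 259 CPM (196 to 336) in library 2. In cDCP-like nuclei they summed to 251 and 245 CPM, in pro-B-like nuclei to 307 and 309 CPM and in B-like nuclei to 287 and 307 CPM. NeuP-like nuclei had the lowest sums, 67.6 and 104 CPM, and EryP-like nuclei followed at 107 and 113 CPM in library 1 and library 2. Thus pro-B-like nuclei had window sums whose intervals overlapped those of pDCP-like nuclei, at Irf8 RNA levels of 81.6 and 76.0 CPM against 1104 and 469 CPM. Over all other nuclei, the pDCP-like ratio was 1.49 (1.28 to 1.73) in library 1 and 1.27 (0.960 to 1.65) in library 2.

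The single peaks showed that these sums were made of different elements. At +41 kb from the Irf8 start, chr8:120776909-120777822, which lies past the end of Irf8 and inside the long annotated gene Gm20388 that spans it, accessibility was 40.3 and 22.9 CPM in pDCP-like nuclei and 25.1 and 15.2 CPM in cDCP-like nuclei of the libraries. Cluster 5 had 8.90 and 7.25 CPM there, B-like nuclei 7.79 and 19.2 CPM, and pro-B-like nuclei only 2.51 and 2.63 CPM. HSC-like nuclei had 0.436 and 0.404 CPM, and NeuP-like nuclei 0 of 2262988 counts and 2 counts (0.545 CPM). With the libraries summed, this peak was 10.4-fold higher in pDCP-like and 5.90-fold higher in cDCP-like nuclei than in other nuclei, the highest such ratio of the window in each class among peaks with at least 20 counts in that class. Per library the pDCP-like ratio was 11.1 (6.84 to 17.1) and 7.22 (2.32 to 17.1), and the cDCP-like ratio 6.70 (3.80 to 11) and 4.89 (2.31 to 9.19).

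A second element stood at +32.55 kb, chr8:120768463-120769353, and was chosen for description after its values were seen. It had 37.2 and 18.3 CPM in cDCP-like nuclei, against 4.22 and 5.28 CPM in other nuclei, for ratios of 8.81 (5.57 to 13.4) and 3.46 (1.77 to 6.13). In pDCP-like nuclei it had 18 counts (16.1 CPM) in library 1 and 0 counts in library 2. The class held only 30 nuclei in library 2, so a difference between the libraries was not shown there. The peak at +38.1 kb was about equally raised in both dendritic classes, 4.39-fold in cDCP-like and 4.59-fold in pDCP-like nuclei with the libraries summed, and 3.84-fold in cMoP-like nuclei. The 300 bases at the centre of the +41 kb and +32.55 kb peaks are printed from the GRCm38 plus strand, chr8:120777216-120777515 and chr8:120768759-120769058, as the Irf8 elements with high ratios in the dendritic classes. Capitals mark matches to the 10 motifs searched here, which are listed further on.
Irf8 +41 kb: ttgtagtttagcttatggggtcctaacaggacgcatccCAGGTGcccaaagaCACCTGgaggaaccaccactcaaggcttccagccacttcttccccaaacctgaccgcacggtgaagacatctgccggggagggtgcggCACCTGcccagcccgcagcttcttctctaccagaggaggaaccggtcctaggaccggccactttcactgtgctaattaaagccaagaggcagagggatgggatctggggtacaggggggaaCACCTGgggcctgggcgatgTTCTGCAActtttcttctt
Irf8 +32.55 kb: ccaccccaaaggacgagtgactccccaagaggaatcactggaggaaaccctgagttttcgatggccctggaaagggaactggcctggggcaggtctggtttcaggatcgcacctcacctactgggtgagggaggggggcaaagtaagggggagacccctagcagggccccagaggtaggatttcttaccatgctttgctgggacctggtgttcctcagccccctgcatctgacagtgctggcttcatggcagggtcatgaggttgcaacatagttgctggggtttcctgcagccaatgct
The +41 kb sequence held 4 E-boxes of the letters CAGGTG or its reverse complement, with first bases at positions 39, 53, 141 and 262 counted from 1 at the 5′ end, and 1 CEBP element at positions 282 to 289. E-boxes are bound by E proteins such as TCF4. The +32.55 kb sequence held none of the 10 motifs.

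Other Irf8 elements were most raised in pro-B-like nuclei. In pro-B-like nuclei the peak at -10.9 kb had 57.3 and 48.7 CPM against 4.82 and 3.80 CPM in other nuclei, a ratio of 11.9 (10.2 to 13.9) and 12.8 (10.5 to 15.6), while cDCP-like nuclei had 2 counts there in each library. The intron peak at +9.96 kb was 14.4-fold (11.3 to 18.5) and 16.1-fold (12.0 to 21.7) higher in pro-B-like nuclei, and the intron peak at +11.2 kb 14.4-fold and 12.0-fold. The peak at -36.5 kb was 6.78-fold and 9.31-fold higher. These peaks were picked after their values were seen. Toward the plasmacytoid side, the peak at -4.29 kb had 12 and 6 counts in pDCP-like nuclei (10.8 and 13.7 CPM) and 1.56 and 1.79 CPM elsewhere, and the peak at +47.8 kb was raised in pDCP-like nuclei of library 1 alone, with 17 counts there and 1 count in library 2.

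The Irf8 promoter peak was open in nearly every class, including classes with Irf8 RNA at the level of EryP-like nuclei. It had 41.8 and 48.0 CPM in cDCP-like, 26.9 and 32.1 CPM in pDCP-like, 24.5 and 28.6 CPM in EryP-like and 27.5 and 24.6 CPM in HSC-like nuclei. NeuP-like nuclei stood apart with 1.33 and 6.0 CPM, a ratio of 0.0414 (0.00298 to 0.177) and 0.199 (0.0992 to 0.357) to other nuclei. Past the 50 kb window, a peak at +62.3 kb, chr8:120798192-120799057, was 6.09-fold higher in pDCP-like nuclei with the libraries summed, but 27 of its pDCP-like counts came from library 1 and 2 from library 2. A peak at +74.9 kb, chr8:120810870-120811712, was 4.82-fold higher in cDCP-like nuclei, with 11 and 14 counts. Both were picked after their values were seen. The other peaks between 50 and 100 kb had cDCP-like ratios of at most 1.69 and pDCP-like ratios of at most 2.61, and the peak at +56.6 kb, with 3473 counts in all, had 0.892 and 0.823.

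**Figure D2:**
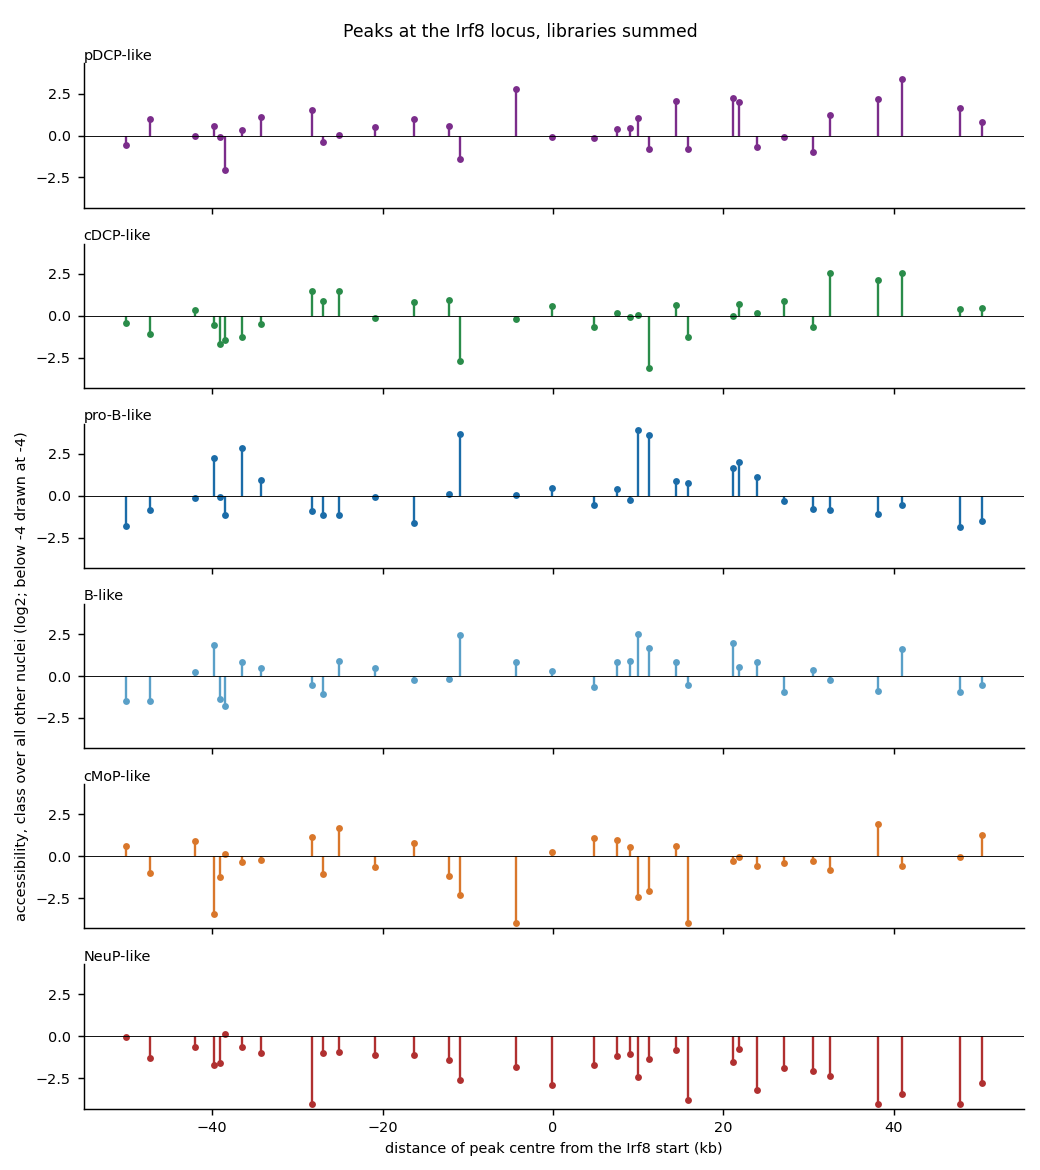
Accessibility of each of the 34 Irf8 peaks in 6 classes over all other nuclei (log2 of the ratio, libraries summed), against the distance of the peak centre from the Irf8 start in kb. The highest stems of pDCP-like and cDCP-like nuclei stand at or beside +41 kb, those of pro-B-like nuclei at -10.9, +9.96 and +11.2 kb, and nearly all NeuP-like stems point down.

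Within a class, nuclei with and without an Irf8 UMI were compared in accessibility over the window, and most intervals of the ratio held 1. In 17 pairs of class and library with at least 30 nuclei of each kind, the ratio of window accessibility ranged from 0.760 to 1.23 with a median of 1.02, and it was above 1 in 9 pairs. Its interval lay above 1 in 1 pair, cluster 5 of library 2, at 1.19 (1.03 to 1.36), and below 1 in 1 pair, MPP-like nuclei of library 1, at 0.760 (0.591 to 0.966). In cDCP-like nuclei the ratio was 1.23 (0.898 to 1.70) and 1.21 (0.880 to 1.68). Nuclei with a UMI were deeper in RNA, with medians of 1820 against 1479.5 UMIs in cDCP-like nuclei of library 1 and 1400 against 1106 in library 2. At this depth a nucleus without an Irf8 UMI can still hold Irf8 RNA, and the window sums over many peaks. The comparison therefore cannot show that accessibility is alike in nuclei with and without Irf8 RNA.

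Batf3, which encodes the AP-1 family partner of IRF8 and IRF4 needed for cross-presenting conventional dendritic cells, was close to the limit of detection in RNA. It had 12 UMIs in library 1 and 9 in library 2. Of these, 4 and 2 fell in cDCP-like nuclei, a level of 34.4 CPM (9.37 to 88.1) and 15.9 CPM (1.92 to 57.3). Against 0.786 and 0.564 CPM in all other nuclei the ratios were 43.8 (9.64 to 163) and 28.1 (2.85 to 148). In pDCP-like nuclei no Batf3 UMI was counted, which allows up to 33.8 CPM in library 1 and 82.7 CPM in library 2 at 3 counts, or 41.6 and 101.7 CPM by the interval on both sides.

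Chromatin gave Batf3 a much better measured difference. Batf3 lies on the plus strand at chr1:191097847-191108945, and its 26 window peaks summed to 271 CPM (233 to 314) and 316 CPM (274 to 362) in cDCP-like nuclei, 1.5-fold (1.29 to 1.74) and 1.58-fold (1.37 to 1.81) the level of other nuclei. The cMoP-like sums were of the same size, 287 and 314 CPM, and the pro-B-like sums were the lowest in each library at 116 and 110 CPM. The window also holds the starts of 4 other genes, among them Nsl1 and Tatdn3. The peak with the highest cDCP-like ratio stood at +2.27 kb, chr1:191100168-191101018, over an exon of Batf3. It had 20.5 and 25.9 CPM in cDCP-like nuclei, 3.58 and 4.58 CPM in pDCP-like nuclei, and 4.97 and 0 CPM in cMoP-like nuclei. The cDCP-like ratio to other nuclei was 9.79 (5.14 to 17.2) and 9.91 (5.64 to 16.4). Its central 300 bases, chr1:191100444-191100743 on the plus strand, are shown as the strongest cDCP-like element of Batf3, with 3 RUNX elements in capitals.
Batf3 +2.27 kb: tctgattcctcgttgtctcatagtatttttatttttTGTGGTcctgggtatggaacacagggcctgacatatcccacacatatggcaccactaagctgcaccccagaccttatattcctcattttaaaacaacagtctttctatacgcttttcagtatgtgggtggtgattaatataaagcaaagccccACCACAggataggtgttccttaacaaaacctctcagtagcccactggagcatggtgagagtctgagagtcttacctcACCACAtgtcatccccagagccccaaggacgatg
A more distant peak at +40.3 kb had 20.5 and 19.8 CPM in cDCP-like nuclei, 6.17-fold (3.27 to 10.7) and 5.35-fold (2.81 to 9.32) higher than elsewhere. In pDCP-like nuclei it had 17.9 CPM in library 1 and 4.58 CPM, from 2 counts, in library 2. The promoter peak of Batf3 had cDCP-like ratios of 1.17 (0.428 to 2.57) and 1.51 (0.647 to 2.99), intervals that include 1.

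Irf4, an IRF family member that acts in the CD11b-type conventional subset and in B and plasma cells, was seen here in B lineage nuclei. Of its 130 UMIs in library 1 and 29 in library 2, 71 and 15 fell in pro-B-like nuclei (40.8 and 20.4 CPM) and 40 and 1 in B-like nuclei (218 and 12.9 CPM), a cluster led by immunoglobulin genes such as Iglc1, Jchain and Igha. MPP-like nuclei had 12 and 3 UMIs, and pDCP-like nuclei 1 in each library. No Irf4 UMI was counted in the cDCP-like nuclei of either library, which allows up to 25.8 and 23.8 CPM at 3 counts, or 31.7 and 29.2 CPM by the interval on both sides. The 1 UMI in pDCP-like nuclei of library 2 came to 27.6 CPM, the highest level of that library, with an interval of 0.698 to 154.

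The Irf4 window was nevertheless more accessible in the dendritic classes than elsewhere. The gene lies on the plus strand at chr13:30749226-30766976, and its 20 window peaks summed to 131 CPM (105 to 162) and 161 CPM (132 to 195) in cDCP-like nuclei, 1.52-fold (1.21 to 1.88) and 1.97-fold (1.61 to 2.39) the level of other nuclei. The pDCP-like sums of 122 and 126 CPM were 1.41-fold (1.09 to 1.79) and 1.53-fold (1.01 to 2.23) higher. B-like nuclei had the highest sums, 159 and 173 CPM, and NeuP-like and EryP-like nuclei the lowest, at 15.0 and 28.9 CPM and at 26.9 and 32.3 CPM. The peak at -10.6 kb, chr13:30738161-30739062, between genes, carried the highest cDCP-like ratio of the window among peaks with at least 20 cDCP-like counts. It had 18.2 and 30.5 CPM in cDCP-like nuclei, 19.9 and 11 CPM in cMoP-like nuclei, 7.17 and 18.3 CPM in pDCP-like nuclei, and 1.04 and 0 CPM in B-like nuclei. Thus B-like nuclei, with the most Irf4 RNA of library 1, had nearly no counts at this element. The cDCP-like ratio was 2.55 (1.31 to 4.50) and 4.37 (2.64 to 6.83). Its central 300 bases, chr13:30738462-30738761 on the plus strand, are printed because they hold IRF-type motifs.
Irf4 -10.6 kb: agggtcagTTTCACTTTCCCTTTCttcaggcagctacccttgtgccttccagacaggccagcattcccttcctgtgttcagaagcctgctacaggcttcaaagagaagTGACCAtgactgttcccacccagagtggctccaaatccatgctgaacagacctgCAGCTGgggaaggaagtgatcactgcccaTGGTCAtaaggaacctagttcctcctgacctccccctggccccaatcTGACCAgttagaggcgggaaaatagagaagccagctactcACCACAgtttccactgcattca
The capitals from position 9 to 24 are a pair of overlapping interferon-stimulated response elements on the opposite strand, TTTCACTTTC at 9 to 18 and TTTCCCTTTC at 15 to 24. The others are 3 BCL11A elements (TGACCA or TGGTCA), 1 E-box of the letters CAGCTG and 1 RUNX element (ACCACA). The peak at -46.8 kb, within Dusp22, was 2.57-fold higher in cDCP-like and 2.59-fold higher in pDCP-like nuclei with the libraries summed.

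Zbtb46, a zinc finger gene used to mark conventional dendritic cells and their committed precursors, had 31 UMIs in library 1 and 21 in library 2. In cDCP-like nuclei it had 8 UMIs (68.8 CPM, 29.7 to 136) and 2 UMIs (15.9 CPM, 1.92 to 57.3), 30.4-fold (11.8 to 70.5) and 10.4-fold (1.17 to 42.9) the level of other nuclei. The only other class with more than 4 UMIs in a library was EryP-like, with 12 UMIs (19.8 CPM) in library 1 and 2 UMIs (4.10 CPM) in library 2. In library 2 the highest level, 23.3 CPM in cluster 18, rested on 1 UMI.

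The Zbtb46 window held the largest cDCP-like peak ratio of all 163 peaks among those with at least 20 cDCP-like counts. This peak lies in an intron, at +23 kb along the gene, chr2:181435995-181436905, with Zbtb46 read from the minus strand. It had 61.6 and 52.6 CPM in cDCP-like nuclei, 12.5-fold (8.73 to 17.3) and 9.48-fold (6.48 to 13.5) the level elsewhere. Cluster 5 had 10.5 and 13.3 CPM, B-like nuclei had 5.19 and 14.4 CPM, pDCP-like nuclei 6.27 and 13.7 CPM, and pro-B-like nuclei 0.689 and 0.526 CPM. A neighbour at +21.0 kb had 21.3 and 10.7 CPM in cDCP-like nuclei, 6.27-fold (3.36 to 10.8) and 2.90-fold (1.15 to 6.08) higher. Zbtb46 spans chr2:181387762-181459426, and the whole window of 25 peaks summed to 275 CPM (237 to 318) and 234 CPM (198 to 274) in cDCP-like nuclei, the highest of all classes, with intervals that overlapped those of pro-NK/T-like nuclei at 221 and 227 CPM, and to 155 and 179 CPM in pDCP-like nuclei. The ratio of cDCP-like to other nuclei was 1.64 (1.41 to 1.90) and 1.39 (1.17 to 1.63). The window also holds the starts of 3 other genes, Lime1, Abhd16b and Tpd52l2, so the sum does not belong to Zbtb46 alone. The central 300 bases of the +23 kb peak, chr2:181436301-181436600, are printed 5′ to 3′ on the minus strand as the element with the largest cDCP-like ratio, and none of the 10 motifs was found in them.
Zbtb46 +23 kb: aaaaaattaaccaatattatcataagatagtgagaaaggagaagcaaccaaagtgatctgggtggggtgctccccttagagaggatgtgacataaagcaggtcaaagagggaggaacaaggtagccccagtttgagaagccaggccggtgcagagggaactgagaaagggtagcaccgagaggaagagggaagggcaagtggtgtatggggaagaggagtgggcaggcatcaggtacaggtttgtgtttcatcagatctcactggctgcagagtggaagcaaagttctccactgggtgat

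Nfil3, a basic leucine zipper repressor that acts early in conventional dendritic and NK cell development, had 109 and 99 UMIs. In cDCP-like nuclei of library 1 it had 5 UMIs (43.0 CPM, 14.0 to 100), 4.21-fold (1.34 to 10.1) the level of other nuclei. In library 2 it had 1 UMI (7.93 CPM, 0.201 to 44.2), an interval that holds the level of library 1. Library 2 was thus too thin to show whether the libraries differ. NeuP-like nuclei had 19.2 and 16.2 CPM, cluster 0 had 21.2 and 9.11 CPM, and GMP-like nuclei 13.5 and 9.37 CPM, while pro-B-like nuclei had 2.30 and 4.07 CPM. The gene lies on the minus strand at chr13:52967209-52981073, and its 18 window peaks were most accessible in NeuP-like nuclei in both libraries, 221 and 223 CPM, and pDCP-like nuclei lay below other nuclei at 90.5 and 73.3 CPM, a ratio of 0.748 (0.556 to 0.986) and 0.512 (0.292 to 0.832). In cDCP-like nuclei they summed to 110 and 98.3 CPM, a ratio of 0.913 (0.714 to 1.15) and 0.685 (0.528 to 0.875). The promoter peak had 78.7 and 81.5 CPM in NeuP-like nuclei, 36.5 and 39.6 CPM in cDCP-like and 21.5 and 16.0 CPM in pDCP-like nuclei. The peak at -4.67 kb was lower in cDCP-like than in other nuclei, 0.193-fold (0.0234 to 0.700) and 0.342-fold (0.111 to 0.8).

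Zeb2, a zinc finger E-box repressor that acts in monocytes, plasmacytoid cells and the IRF4-type conventional subset, was the most often seen member, with a UMI in 58.0% of nuclei of library 1 and 41.3% of library 2. The gene is also the longest of the 7, spanning 134 kb, and nuclear RNA counts introns. Per kb of gene span, Zeb2 stood at 5.61 and 2.96 CPM over all nuclei, below Irf8 at 6.85 and 3.86 CPM. Its level was highest in cMoP-like nuclei, at 1713 CPM (1464 to 1993) and 802 CPM (651 to 978), followed by MkP-like nuclei at 1150 and 631 CPM. The dendritic classes parted: pDCP-like nuclei had 879 and 413 CPM, and cDCP-like nuclei 378 and 127 CPM. The ratio of pDCP-like to cDCP-like was 2.32 (1.58 to 3.44) and 3.26 (1.5 to 7.04), and that of cMoP-like to cDCP-like 4.53 (3.23 to 6.46) and 6.32 (3.71 to 11.5). Against all other nuclei, cDCP-like nuclei had 0.501 (0.364 to 0.673) and 0.319 (0.182 to 0.518) of the level, while the pDCP-like ratios of 1.17 (0.925 to 1.46) and 1.05 (0.585 to 1.73) had intervals that include 1.

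The Zeb2 window did not follow its RNA. The gene lies on the minus strand at chr2:44983632-45117395, and the 14 peaks near its start summed to 69.2 and 83.8 CPM in cDCP-like, 83.3 and 43.5 CPM in pDCP-like and 88.6 and 98.6 CPM in cMoP-like nuclei, and the pDCP-like to cDCP-like ratio was 1.2 (0.783 to 1.85) in library 1 and 0.519 (0.231 to 1.04) in library 2. The window covers the start and not the whole gene. The intron peak at +5.27 kb was 1.95-fold (0.906 to 3.67) and 2.09-fold (0.997 to 3.88) higher in cDCP-like nuclei, where Zeb2 RNA was low, and these intervals include 1.

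Bcl11a, a zinc finger gene needed for B cells and plasmacytoid dendritic cells and also a repressor of fetal globin in erythroid cells, was measured in all of these, though in B-like nuclei mainly in library 1. In library 1 it stood at 507 CPM (370 to 678, 45 UMIs) in pDCP-like, 426 CPM in EryP-like, 381 CPM in B-like, 343 CPM in MPP-like and 310 CPM in pro-B-like nuclei. The intervals of neighbours in this order included a ratio of 1. In library 2 pDCP-like nuclei had 82.7 CPM from 3 UMIs (17.1 to 242), and the highest levels were 156 CPM in EryP-like and 155 CPM in pro-B-like nuclei, while B-like nuclei had 25.8 CPM from 2 UMIs (3.13 to 93.3). In cDCP-like nuclei it had 146 and 79.3 CPM, and in GMP-like nuclei 64.4 and 32.4 CPM. The ratio of pDCP-like to cDCP-like was 3.47 (1.95 to 6.46) in library 1 and 1.04 (0.185 to 4.05) in library 2. MPP-like nuclei exceeded GMP-like nuclei 5.32-fold (3.78 to 7.69) and 3.54-fold (2.40 to 5.31). The gene lies on the plus strand at chr11:24078056-24174123, and its 26 window peaks differed little between these classes, at 161 and 188 CPM in pDCP-like, 127 and 159 CPM in cDCP-like and 163 and 163 CPM in EryP-like nuclei.

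**Figure D3:**
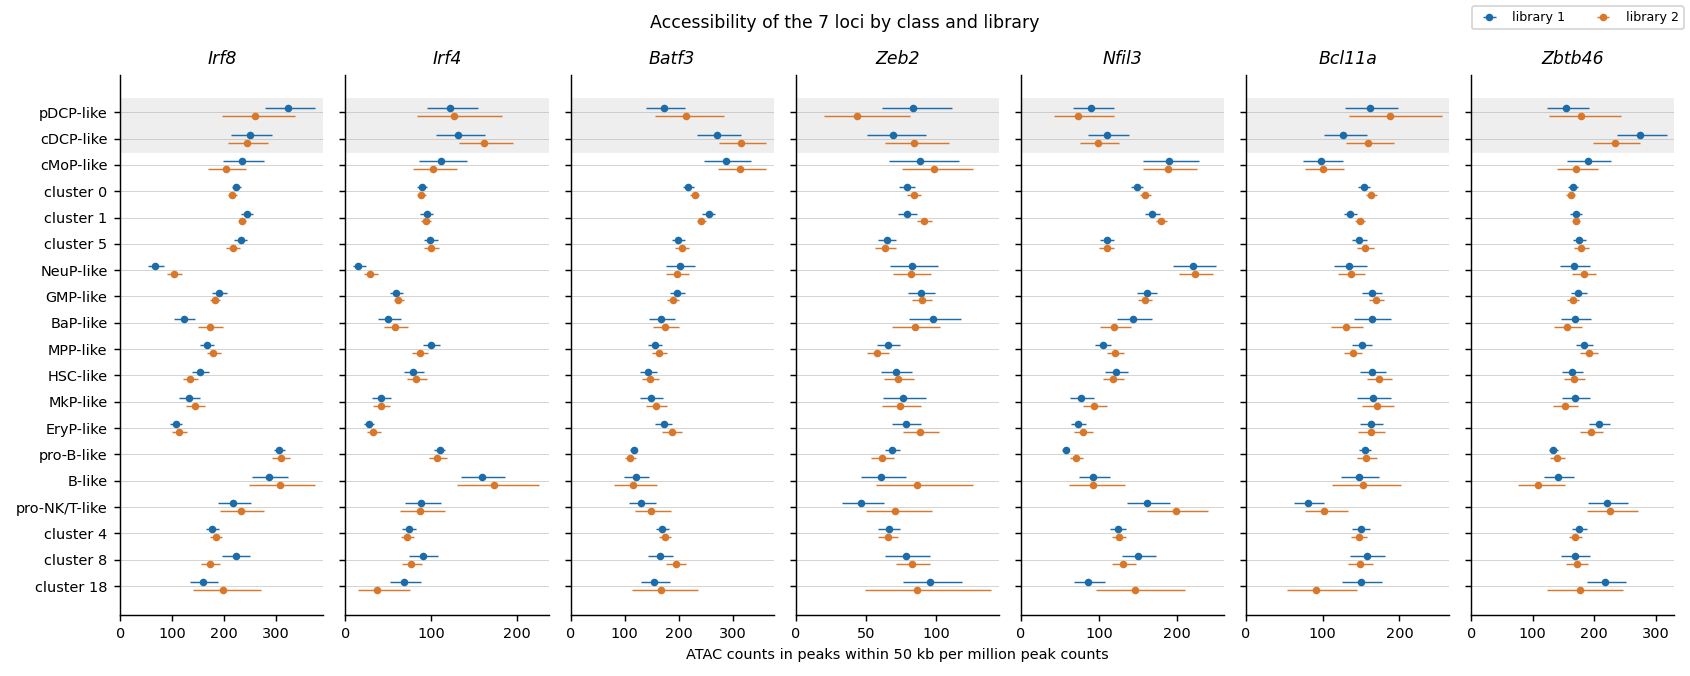
Accessibility summed over the peaks within 50 kb of each gene's start interval in 19 classes (rows) and both libraries (colours), in ATAC counts per 1000000 peak counts on linear axes from 0, with Poisson intervals on pairs of counts. In the shaded cDCP-like row Zbtb46 reaches 275 and 234 CPM and Batf3 271 and 316 CPM, the latter beside cMoP-like sums of 287 and 314 CPM, Irf8 is low in NeuP-like nuclei, and the Zeb2 sums all lie between 43.5 and 98.6 CPM.

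Counted over the members, RNA was highest in a dendritic class for 5 of 7 in library 1 (Irf8, Batf3, Nfil3, Bcl11a and Zbtb46) and for 3 of 7 in library 2 (Irf8, Batf3 and, on 1 UMI, Irf4). Of all genes with at least 5 UMIs, 17.5% of 14883 in library 1 and 19.3% of 15759 in library 2 were highest in 1 of these small classes. Several of these ranks were not resolved. In library 1 the ratio to the next class had an interval above 1 for Irf8 and Zbtb46. It held 1 for Batf3 at 4.96 (0.491 to 244), Nfil3 at 1.41 (0.273 to 9.05) and Bcl11a at 1.19 (0.846 to 1.64). In library 2 it held 1 for Batf3 at 6.87 (0.357 to 405) and Irf4 at 1.35 (0.0321 to 8.80). The interval of the cDCP-like ratio lay above 1 in both libraries for 3 of 7 members, Irf8, Batf3 and Zbtb46, beside 1.85% of the 12901 genes with at least 20 UMIs. Batf3 reached that limit only with its cDCP-like UMIs, so its case is not read against that share. For pDCP-like nuclei it did so for Irf8 alone of the 7, against 0.690% of genes. Counting error alone enters these intervals, and the classes were built from the other genes of the same nuclei. Depth was not matched between the members and all genes, and the members were chosen with earlier results of these data known. These counts and shares are therefore not read as a result about the members.

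Window accessibility was highest in a dendritic class for 2 of 7 members in library 1 (Irf8 and Zbtb46) and 3 of 7 in library 2 (Batf3, Bcl11a and Zbtb46), against 12.9% and 15.8% of all gene windows. The interval of each of these highest sums overlapped that of a class outside the dendritic ones. The cDCP-like ratio of window accessibility had intervals above 1 in both libraries for 3 of 7, Irf4, Batf3 and Zbtb46, against 7.43% of 27846 windows. The pDCP-like ratio did so for 1 of 7, Irf4, against 3.10%. A count of single peaks with at least 2-fold higher accessibility and 20 counts in the class, libraries summed, found 15 of 159 member peaks for cDCP-like nuclei, beside 4.73% of all peaks tested. Of these, 5 were near Batf3, 3 near Irf8, 3 near Irf4, 2 near Zbtb46 and 1 each near Zeb2 and Bcl11a. For pDCP-like nuclei it found 6 of 159, beside 2.90% of all peaks, with 2 each near Irf8 and Batf3 and 1 each near Irf4 and Zbtb46. No peak near Nfil3 passed for either class.

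**Figure D4:**
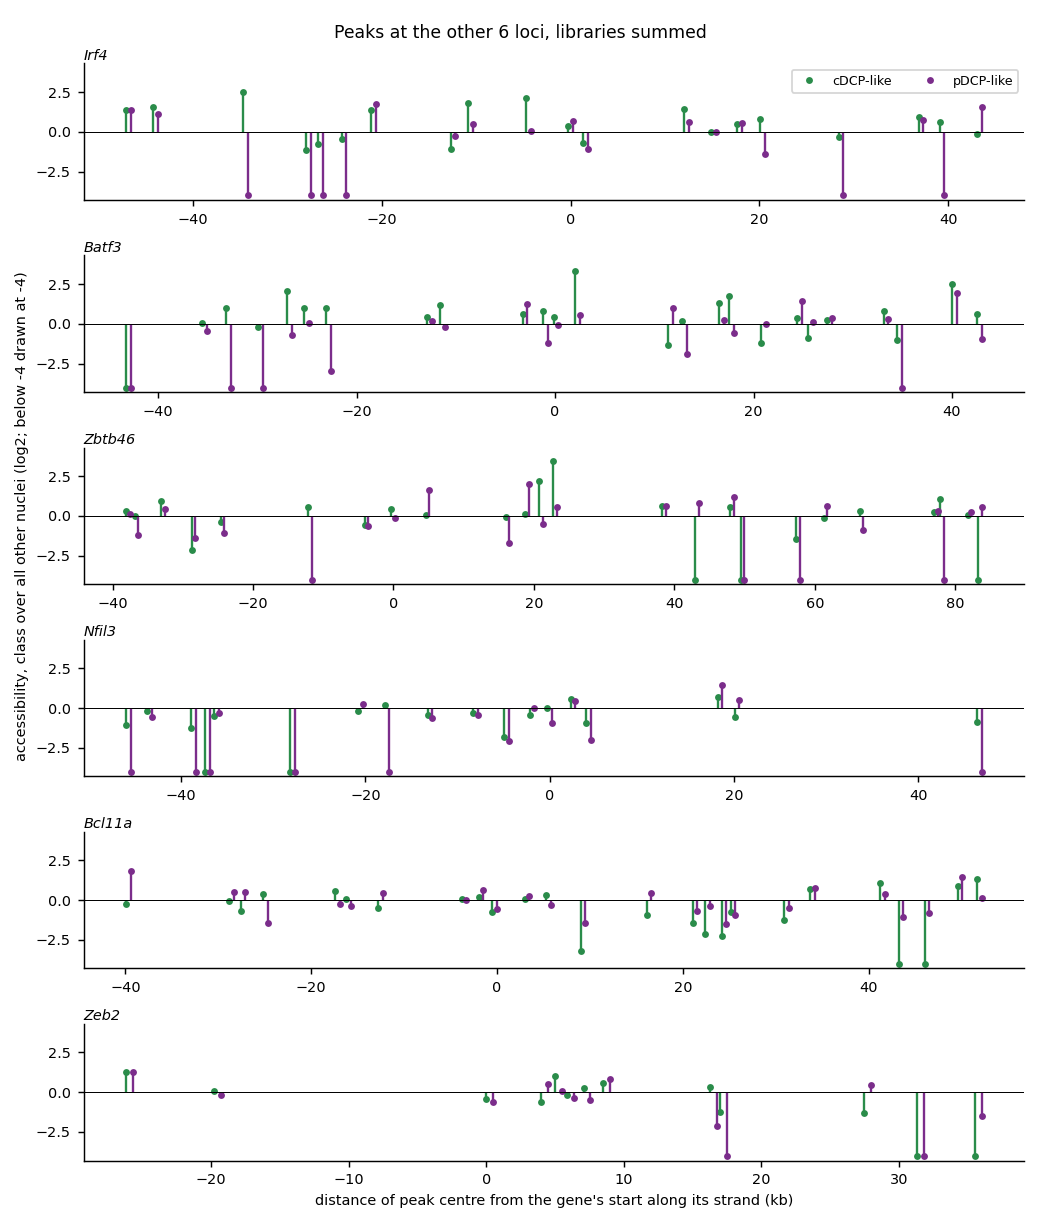
Accessibility of each peak at the other 6 loci in cDCP-like (green) and pDCP-like (purple) nuclei over all other nuclei (log2 of the ratio, libraries summed), against distance from the gene's start along its strand in kb. Tall cDCP-like stems without a pDCP-like partner of the same height stand at +2.27 kb of Batf3, at +23 kb of Zbtb46 and at -10.6 kb of Irf4, and stems drawn at -4 mostly belong to peaks with few counts.

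Over the 38 points of 19 classes and 2 libraries, RNA and window accessibility had Pearson correlations of 0.678 for Irf8, 0.505 for Nfil3, 0.492 for Bcl11a, 0.427 for Irf4, 0.384 for Zbtb46, 0.311 for Batf3 and 0.114 for Zeb2. Points of a class share cell identity across libraries, and points of a library share its depth, so these are descriptions. By the same measure on log2(CPM + 1) of RNA, the genes most like Irf8 among 3947 genes with at least 500 UMIs were Hdac9 (0.852), Ly86 (0.796) and St8sia4 (0.779). Those most like Irf4 were Ighm (0.729), the heavy chain gene of IgM, Camk2d (0.705) and Ucp2 (0.700). Bcl11a was followed most closely by Ube2e3 (0.892), Rmnd5a (0.889) and Msh3 (0.877), Nfil3 by Rab27a (0.757), Rnpep (0.636) and Adap1 (0.633), and Zeb2 by Akap10 (0.684), A630001G21Rik (0.684) and Smg1 (0.634). For the sparse Batf3 the top gene was Rbpj (0.625), before Vim (0.556) and Pfkp (0.553), and for Zbtb46 Psmb4 (0.511), before Cst3 (0.486) and Cox7a2l (0.461). Some of these likenesses differed between the libraries when each was taken alone over its 19 classes. Over the genes named they ran from 0.262 to 0.865 in library 1 and from 0.290 to 0.938 in library 2. For Bcl11a they were 0.631 and 0.938 with Ube2e3, 0.651 and 0.930 with Rmnd5a and 0.683 and 0.917 with Msh3. For Zeb2 they were 0.587 and 0.496 with Akap10, 0.715 and 0.290 with A630001G21Rik and 0.267 and 0.660 with Smg1, and for Zbtb46 0.262 and 0.726 with Cox7a2l.

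Members were also counted together in single nuclei. Of 1068 nuclei with an Irf8 UMI in library 1, 747 also had a Zeb2 UMI and 263 a Bcl11a UMI, and in library 2 these were 422 and 83 of 856. Of 28 and 21 nuclei with a Zbtb46 UMI, 10 and 4 had an Irf8 UMI. Of 115 and 29 nuclei with an Irf4 UMI, 14 and 3 had one. Deeper nuclei show more genes of any kind, so these counts carry depth as well.

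RNA of the members also differed in level between the libraries. The median of log2 library 2 over library 1 was -0.63 over 10614 genes, those that had 20 UMIs or more in both libraries, and Irf8 (-0.83), Zeb2 (-0.93), Nfil3 (-0.42), Batf3 (-0.70) and Zbtb46 (-0.85) lay near it over all nuclei. Irf4, at -2.45 (-3.08 to -1.86), and Bcl11a, at -1.64 (-1.76 to -1.51), lay at percentiles 0.104 and 1.22 of those genes. Pro-B-like nuclei, which held most Irf4 UMIs, made up 17.6% of library 1 and 6.70% of library 2. Within pro-B-like nuclei the log2 ratio was -1.0 for Irf4 (-1.91 to -0.19) and -1.0 for Bcl11a (-1.31 to -0.71). Within B-like nuclei it was -4.08 for Irf4 (-9.41 to -1.51), from 40 and 1 UMIs, and -3.88 for Bcl11a (-6.96 to -1.98), from 70 and 2 UMIs. Within EryP-like nuclei it was -1.45 for Bcl11a (-1.84 to -1.08). In pDCP-like nuclei it was -1.24 for Irf8 (-2.07 to -0.48), -1.09 for Zeb2 (-1.99 to -0.28) and -2.62 for Bcl11a (-4.95 to -0.98), the last from 45 and 3 UMIs. In cDCP-like nuclei it was -0.72 for Irf8 (-1.28 to -0.18) and -1.58 for Zeb2 (-2.50 to -0.72). Over genes with 20 UMIs or more in both libraries of a class, the median was -0.594 in pro-B-like (3053 genes) and -0.552 in EryP-like nuclei (1985 genes). It was -0.381 in cDCP-like (302 genes), -0.0729 in B-like (162 genes) and 0.240 in pDCP-like nuclei (59 genes). The pro-B-like interval of Irf4 holds the median of its class. Few genes entered in the small classes, so their medians are rough references. The libraries belong to no group, and library and condition cannot be told apart.

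The motifs searched on both strands in the central 300 bases of peaks were the interferon-stimulated response element GAAANNGAAA, the ETS-IRF element GGAANNGAAA, the AP-1 element TGANTCA, the PU.1 element GAGGAAGT, the E-boxes CAGGTG and CAGCTG, the NFIL3 element TTACGTAA, the RUNX element TGTGGT, the CEBP element TTGCNNAA and the BCL11A element TGACCA. A sequence can match both GAAANNGAAA and GGAANNGAAA only at different positions, but overlapping matches of 1 motif were each counted. The interferon-stimulated response element was found in 14 of 163 member peaks, 8.59%, beside 4.93% of 174282 peaks. The BCL11A element was in 38 (23.3%) beside 16.4%, CAGCTG in 37 (22.7%) beside 19.7%, CAGGTG in 28 (17.2%) beside 19.4%, and the RUNX element in 42 (25.8%) beside 29.7%. The ETS-IRF element was in 10 (6.13%) beside 5.39%, the PU.1 element in 13 (7.98%) beside 9.79%, the AP-1 element in 19 (11.7%) beside 11.4%, the CEBP element in 21 (12.9%) beside 14.2% and the NFIL3 element in 1 (0.613%) beside 0.133%. A match is a description of letters and no evidence of binding.

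Over all peaks of the genome, the share of a class's ATAC counts in peaks with an ETS-IRF element, the joint element of PU.1 and IRF8 or IRF4, was highest in cDCP-like nuclei, 5.84% and 5.69%, beside class medians of 3.79% and 3.84%. It was 5.27% and 5.30% in pDCP-like nuclei. The share in peaks with the PU.1 element was also highest in cDCP-like nuclei, 9.54% and 9.29%, and that with the interferon-stimulated response element was highest in pDCP-like nuclei, 4.50% and 4.27% beside medians of 3.72% and 3.76%. For the E-box CAGCTG pDCP-like nuclei were highest at 21.7% and 21.2% and cDCP-like nuclei were near the bottom at 17.3% and 17.2%. Peaks with AP-1 elements, which BATF3 can share, took 8.42% of cDCP-like counts in each library, close to the medians of 8.29% and 8.43%. These clusters were built in part from the same ATAC counts, so the shares describe the classes.

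Of 20 other regulators of dendritic cells, 7 had cDCP-like RNA ratios with intervals above 1 in both libraries, and 1 had intervals below 1 in both. Over all genes the share with intervals above 1 in both was 1.85%. All 20 had at least 20 UMIs, but Zfp366, 1 of the 7, only with its cDCP-like UMIs, so it is not read against that share. The 20 genes were not left out of the clustering, so their ratios describe the classes. The medians over the list were 1.52 and 1.69, beside 0.648 and 0.635 over all genes. Genes with few UMIs lower the latter, since a small class often holds none of their UMIs. In pDCP-like nuclei of library 2 the median over all genes was 0. Depth was not matched between the list and all genes. These medians, and the shares beside the counts, are therefore not read as a result about the list. Id2, the E protein inhibitor, had 12 UMIs (103 CPM) and 5 UMIs (39.6 CPM) in cDCP-like nuclei, 14.0-fold (6.93 to 25.9) and 6.39-fold (2.02 to 15.6) higher. In pDCP-like nuclei it had 0 UMIs in both libraries, with ratio intervals that reach up to 4.98 and 15.9, so a lower level was not shown there. Notch2, a receptor of the IRF4-type subset, was 3.61-fold (2.51 to 5.04) and 5.01-fold (3.33 to 7.28) higher, and its nuclear effector Rbpj 2.95-fold and 2.72-fold. Bcl6 was 5.08-fold and 4.25-fold higher, and Cbfa2t3, a corepressor, 2.81-fold and 3.71-fold. Zfp366, known as DC-SCRIPT, was 25-fold and 54.7-fold higher on 2 and 5 UMIs. Runx2 was the other, at 2.82-fold and 1.93-fold, and Etv6 was the 1 below, at 0.688-fold and 0.577-fold.

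For pDCP-like nuclei 4 of the 20 regulators had intervals above 1 in both libraries (20% of them, beside 0.690% of all genes). Tcf4, the E protein that sets plasmacytoid identity, had 3312 CPM (294 UMIs) and 1351 CPM (49 UMIs), 10.3-fold (9.09 to 11.6) and 8.68-fold (6.40 to 11.5) higher than other nuclei. Runx2 had 1498 and 634 CPM, 9.04-fold (7.52 to 10.8) and 9.22-fold (5.81 to 13.9) higher. Mef2c was 1.85-fold and 2.92-fold higher and Ikzf1 1.82-fold and 2.11-fold. Tcf4 and Runx2 were among the leading genes of the pDCP-like cluster, so their ratios describe how that cluster was found.

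**Figure D5:**
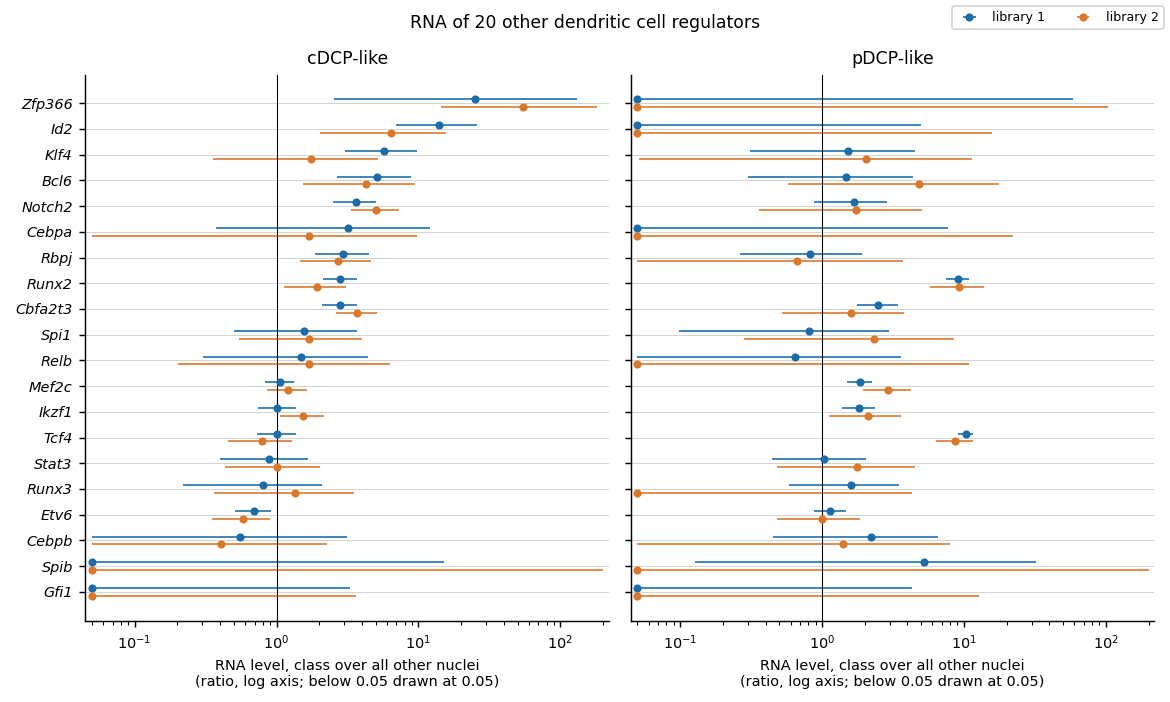
RNA of 20 other dendritic cell regulators in cDCP-like (left) and pDCP-like (right) nuclei over all other nuclei of the same library, as a ratio on a log axis with 95% intervals for counting error, and values below 0.05 drawn at 0.05. Id2, Notch2, Rbpj, Bcl6, Cbfa2t3 and Zfp366 lie right of 1 for cDCP-like nuclei in both libraries, and Tcf4, Runx2, Mef2c and Ikzf1 for pDCP-like nuclei.

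Genes of dendritic cell function were counted in the same way. Of 18 conventional effectors with at least 20 UMIs, 9 had intervals above 1 in both libraries in cDCP-like and 4 in pDCP-like nuclei, and of 11 plasmacytoid effectors 0 and 3. Over all genes the share with such intervals was 1.85% for cDCP-like and 0.690% for pDCP-like nuclei. Of the 18 and 11 genes, 9 and 8 were also markers used to name clusters. Most of those counted were such markers, H2-Aa, H2-Ab1, H2-Eb1, Cd74, Ciita and Wdfy4 on the conventional side and Siglech, Bst2 and Pacsin1 on the plasmacytoid side, so their counts describe how the clusters were named. Among those that were not, Cst3, the cystatin C gene and a leading gene of the cDCP-like cluster, was 9.37-fold and 4.34-fold higher in cDCP-like nuclei, and Naaa 16.9-fold and 12.3-fold. Of 11 growth and homing receptors, 2 had such intervals in pDCP-like and 0 in cDCP-like nuclei. They were Ccr9, a gut-homing chemokine receptor that served as a marker here, and Flt3, the receptor for the growth factor of dendritic progenitors. Flt3 was 1.73-fold (1.05 to 2.68) and 2.92-fold (1.33 to 5.56) higher in pDCP-like nuclei, and in cDCP-like nuclei its ratios were 1.12 (0.648 to 1.79) and 1.40 (0.779 to 2.31). Of 6 other interferon regulatory factors with at least 20 UMIs, 0 had such intervals in either class, and of 6 BATF and JUN family genes and partners 1 did in cDCP-like nuclei, Fosb, at 2.26-fold (1.69 to 2.96) and 1.62-fold (1.13 to 2.27).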

How the data were processed

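RNA and open chromatin were measured in the same nuclei. The counts deposited by the authors are UMIs per gene and ATAC counts per peak in 1 pooled matrix on GRCm38 (mm10). The submitters' processing notes name Cell Ranger ARC 2.0.0, Seurat 4.0.3 and Signac 1.3.0. Of nonzero peak entries 82.5% were even, so intervals on ATAC counts rest on pairs of counts. The table held 0 mitochondrial gene rows.

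Of 18961 barcodes, 13619 passed the limits on genes and ATAC counts. They were clustered with Seurat 5.3.0 in R 4.3.3 by weighted nearest neighbours (30 principal components of 2000 variable genes, latent semantic indexing components 2 to 30 of peaks, correction between libraries, Louvain resolution 0.8), with the 7 genes and their 163 peaks left out. A cluster was named when at least 3 markers of a list were raised (log2 of 1 or more, at least 10 UMIs) and the mean log2 over the list was 1 or more. At least 1 marker of the list also had to be among the 10 leading genes of the cluster, and no other list could have more there. These names were rebuilt here and may differ from the study's. Doublets were left in; an alternative removed the top 8% of Scrublet scores (scanpy 1.11.5).

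Counts were summed per class and library and scaled per 1000000. Intervals at 95% cover counting error only. Those on RNA are exact for Poisson counts. A run on simulated Poisson counts checked how the RNA ratio intervals were computed, and it says nothing of the spread between nuclei. Those on ATAC counts rest on halved counts and are approximate, since not all entries were even. With 1 sample per group, and no label that ties a barcode suffix to a sample, no statistical test was made. Gene positions came from GENCODE M21. Sequences were read with pysam 0.24.0, and Python 3.11.15, numpy 2.4.6, pandas 2.3.3, scipy 1.17.1 and matplotlib 3.10.9 were used.

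The members, markers and gene lists were chosen with earlier results of these data known. Peaks were named by rule as the promoter peak and those with the highest cDCP-like and pDCP-like ratios (at least 200 counts in all and 20 in the class), and genes most like a member as the 3 with the highest Pearson correlation among those with at least 500 UMIs. Other peaks and the list genes described were picked after their values were seen. Leaving out barcodes found under both suffixes was an alternative added after seeing the data.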

Additional observations from a re-analysis of the deposited data

How the results depend on the processing

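Irf8 RNA stayed higher in the dendritic classes than in other nuclei under every alternative that gave a value. Counting each setting once per library, 19 values in cDCP-like nuclei ran from 4.16 to 5.25 and 18 in pDCP-like nuclei from 3.72 to 8.95. The lowest pDCP-like ratio, 3.72 in library 2 with at least 500 genes per nucleus, had an interval of 0.448 to 13.5. With the RNA embedding alone the cDCP-like ratio of library 2 was 3.25 (2.39 to 4.32). No cluster met the naming rule for pDCP-like there, so that class gave no value, and the cause was not tested. Members with their highest RNA in a dendritic class numbered 1 in library 2 with at least 500 genes per nucleus and 2 to 5 in the other 17 pairs of setting and library. For window accessibility this count was 1 in library 1 without correction between libraries and with the RNA embedding alone. In library 2 it was 1 at a Louvain resolution of 1.2, with the RNA embedding alone, with peaks within 100 kb and without peaks within 1 kb of the start interval, and in the other 18 such pairs it was 2 to 4. The cause of these changes was not tested. Single window ratios were recomputed only with windows of 20 and 100 kb, where 45 stayed within their interval and 11 moved. Their dependence on clustering, depth or doublets was not tested. The Zbtb46 ratio of cDCP-like nuclei in library 1 was 2.54 within 20 kb and 1.36 within 100 kb, and the Irf8 ratio there was 0.936 (0.704 to 1.22) within 20 kb. Apart from those of Irf8, member RNA ratios were recomputed only without the ribosomal RNA locus genes. All 28, those of Irf8 included, stayed within their intervals there, and no called ratio changed direction. A ratio from 0 UMIs could not move. Leaving out nuclei whose barcode sequence occurred under both suffixes gave Irf8 ratios of 8.51 and 6.04 in pDCP-like and 4.78 and 5.00 in cDCP-like nuclei. With 30 pDCP-like nuclei in library 2, 3 counts came to 82.7 CPM, which limits what a level of 0 there can show. No paired analysis was possible because each group held 1 sample and the libraries carry no group.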
